A study of Mus musculus with 36 samples.

Results

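The genes described here are 10 mouse genes of heme breakdown and iron storage, Hmox1, Slc48a1, Blvra, Blvrb, Fth1, Ftl1, Slc40a1, Tfrc, Slc11a2 and Fech. They were taken by symbol from the 19879 genes with a row in the deposited tables, and each had 1 row. The list of symbols was chosen with earlier results of these data known, so counts of its calls are descriptions of a chosen set. Heme oxygenase 1, the product of Hmox1, opens the heme ring and releases iron, carbon monoxide and biliverdin. Biliverdin reductases then make bilirubin, and the iron is held in ferritin cages of heavy and light chains or leaves the cell through ferroportin. Microglia and other macrophages are known for taking up heme and iron, and in many cell types the genes of this route are targets of the transcription factor Nrf2 and of the heme-binding repressor Bach1. Ferritin, ferroportin and transferrin receptor mRNAs are further read by iron regulatory proteins, which bind a short hairpin called the iron-responsive element.

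The cells were BV-2, a wild-type microglial line of the mouse that was made immortal in culture, and poly(A) RNA was read in 36 libraries, 3 for each of 12 groups. Each of 6 treatments was sampled at 4 h and at 24 h. Vehicle groups received DMSO or ethanol (EtOH) and no activator. The other cells received 600 ng/mL of lipopolysaccharide (LPS), a bacterial activator of microglia, by itself or with a drug, which was cannabidiol (CBD) at 6 µM or a fumaric acid ester at 30 µM, either dimethyl fumarate (DMF) or monomethyl fumarate (MMF). DMF and MMF were dissolved in DMSO and CBD in EtOH, vehicle was kept at 0.2% in all cells, and the serum of the medium was lowered to 0.1% for the LPS experiments. Which vehicle the LPS-only cells received is not given in the sources used here, so vehicle and drug cannot be told apart in a comparison of a drug with LPS. The 3 libraries of a group came from 3 independent experiments on 1 cell line, so the p-values measure the spread between those experiments. The labels number vehicle libraries 4 to 6 and LPS-treated libraries 1 to 3. If these numbers mark separate experiments, LPS and the set of experiments cannot be told apart.

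The libraries held 14.1 to 26.7 M counted reads, with a median of 16.2 M, and the 10 genes together took 0.378 to 1.78% of them. Of 10 microglial markers 10 were in the tables, and Csf1r ranged from 4625 to 15408 normalized counts (reads divided by a depth factor common to all 36 libraries), whereas Tmem119, a marker of microglia in the brain, reached only 223. Of 8 erythroid markers 4 were in the tables, with a summed level of 10.7 to 34.6 in a library, and their part in the heme genes' values was not tested. Tnf, a cytokine that LPS induces, ranged from 1200 to 8857 over the libraries. No value of a member was at 0 in any library.

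Letters that carry the regulation known for this route were read from the GRCm39 genome and the GENCODE release 39 transcripts. The motif TGACTCAGC, the element bound by Nrf2 or Bach1 with small Maf proteins, was searched on both strands in the 12000 bases before the transcript start of 9 of the 10 genes. Hmox1 had 4 matches, and 11 of 21757 protein-coding genes (0.0506%) had as many or more, while 16.4% had at least 1. Fth1, Ftl1 and Slc11a2 each had 1 match, and Slc48a1, Blvra, Blvrb, Slc40a1 and Tfrc had none. The shorter form TGACNNNGC, which includes the full motif, had 12 matches before Hmox1 against a median of 3, and 96.1% of all genes had at least 1. In the 5000 bases next to the start, Hmox1, Fth1, Ftl1 and Slc11a2 each had 1 match to the full motif, and 7.12% of all genes had at least 1. In the 250 bases next to the start, none of the 9 genes had the full motif, which 0.326% of all genes hold there. A match is a description of letters and not a measured binding site. Among the genes raised by DMF at 4 h and by CBD at 24 h, Hmox1 and Ftl1 had a match to the full motif. Slc48a1 and Slc40a1, also raised by both drugs, had none. Fech, raised by both as well, was the gene left out of the search. A link between matches and drug responses was not tested. The stretches of the members with a full match are shown, and the capitals mark the motif or its reverse complement. Distances are to the start of the GENCODE canonical transcript, which can lie inside the gene bounds given below.
Hmox1, chr8:75810564-75810655, GRCm39, plus strand, 9664 to 9607 bases before the start: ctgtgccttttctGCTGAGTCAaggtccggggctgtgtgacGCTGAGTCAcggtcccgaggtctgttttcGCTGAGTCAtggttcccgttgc
Hmox1, chr8:75816365-75816399, plus strand, 3863 bases before the start: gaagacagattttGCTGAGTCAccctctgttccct
Fth1, chr19:9955991-9956025, plus strand, 4006 bases before the start: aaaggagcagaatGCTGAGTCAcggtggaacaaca
Ftl1, chr7:45110390-45110424, minus strand, 1103 bases before the start: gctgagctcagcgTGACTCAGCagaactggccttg
Slc11a2, chr15:100323952-100323986, minus strand, 3037 bases before the start: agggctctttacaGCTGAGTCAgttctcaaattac

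The iron-responsive element was searched in the canonical transcripts of the same 9 genes, as a bulged C, 5 bases, the loop CAGTGN and 5 bases that pair with the first 5 (G-T pairs allowed). It was found in 4 of them, the ferritin, ferroportin and transferrin receptor genes, whose mRNAs were already known to carry it. Of 21770 protein-coding transcripts 1.33% had a match. Fth1, Ftl1 and Slc40a1 carried 1 match each in the 5′ UTR, where binding is known to hold back translation. Tfrc carried 4 matches in the 3′ UTR, where binding is known to protect the mRNA from decay. Slc11a2 had no match to this pattern in its canonical transcript. Each match is shown with the loop in capitals, and its part in the mRNA levels of these 4 genes was not tested.
Fth1, 5′ UTR, chr19:9960097-9960124, plus strand: tcctgcttcaaCAGTGCttgaacggaac
Ftl1, 5′ UTR, chr7:45109203-45109230, minus strand: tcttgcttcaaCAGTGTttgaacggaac
Slc40a1, 5′ UTR, chr1:45964625-45964652, minus strand: aacttcagctaCAGTGTtagctaagttt
Tfrc, 3′ UTR, chr16:32450038-32450065, plus strand: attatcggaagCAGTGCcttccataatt
Tfrc, 3′ UTR, chr16:32450417-32450444, plus strand: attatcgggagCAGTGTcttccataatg
Tfrc, 3′ UTR, chr16:32450482-32450509, plus strand: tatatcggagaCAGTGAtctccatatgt
Tfrc, 3′ UTR, chr16:32450529-32450556, plus strand: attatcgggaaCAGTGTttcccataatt

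Per kilobase of canonical transcript, ferritin heavy chain Fth1 was the most abundant of the 10 in every group. Its group means ran from 50550 normalized counts per kb (DMSO, 4 h) to 211303 (LPS with CBD, 24 h). The light chain Ftl1 ranked next in all groups, at 17454 to 53775 per kb, and Hmox1 ranged from 1720 to 28096. Fech was at the other end, with 55.5 to 85.9 per kb, and had the lowest mean of the 10 in 8 of the 12 groups. Slc40a1, which encodes ferroportin, ran from 33.0 to 562 per kb and was lowest in the other 4, the 4 h groups of DMSO, EtOH, LPS and LPS with CBD. Between the highest and the lowest group mean, the log2 ratio of the level was 4.09 for Slc40a1, 4.03 for Hmox1, 2.18 for Blvrb, 2.11 for Slc11a2 and 2.06 for Fth1. It was 1.88 for Slc48a1, 1.62 for Ftl1 and 1.38 for Tfrc, and the flattest genes were Fech at 0.63 and Blvra at 0.58. These ratios are descriptions of groups picked by their means.

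The order of the 12 groups differed between genes. Hmox1 was highest in LPS with DMF at 4 h (44307 ± 6797 normalized counts, SD, n = 3) and next in LPS with CBD at 24 h (16865 ± 1311), and the libraries of these groups overlapped with no other group. From the third to the eighth place the Hmox1 libraries of neighbouring groups overlapped, from DMSO at 24 h (9637 ± 781) to LPS at 24 h (6286 ± 1133). Slc40a1 reversed the first places, with LPS with CBD at 24 h (1945 ± 202) before LPS with DMF at 4 h (1619 ± 220), and the libraries of these groups overlapped.

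The deposited coordinates (GRCm39) place Hmox1 at chr8:75820249-75827217, Slc48a1 at chr15:97676401-97690573 and Blvra at chr2:126912585-126939004. Blvrb lies at chr7:27147403-27165569, Fth1 at chr19:9957962-9962462, Ftl1 at chr7:45107368-45109308 and Slc40a1 at chr1:45947228-45965683. Tfrc lies at chr16:32427738-32451612 and Slc11a2 at chr15:100285779-100322953. All are protein-coding genes and the counts cover their exons. Slc48a1 shares 2396 of its 2920 exon bases with Hdac7 on the opposite strand. The strand setting of the counting is not given in the sources used here, so how reads of the shared bases were counted is not known. Hdac7 values are therefore given beside Slc48a1.

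**Figure D1:**
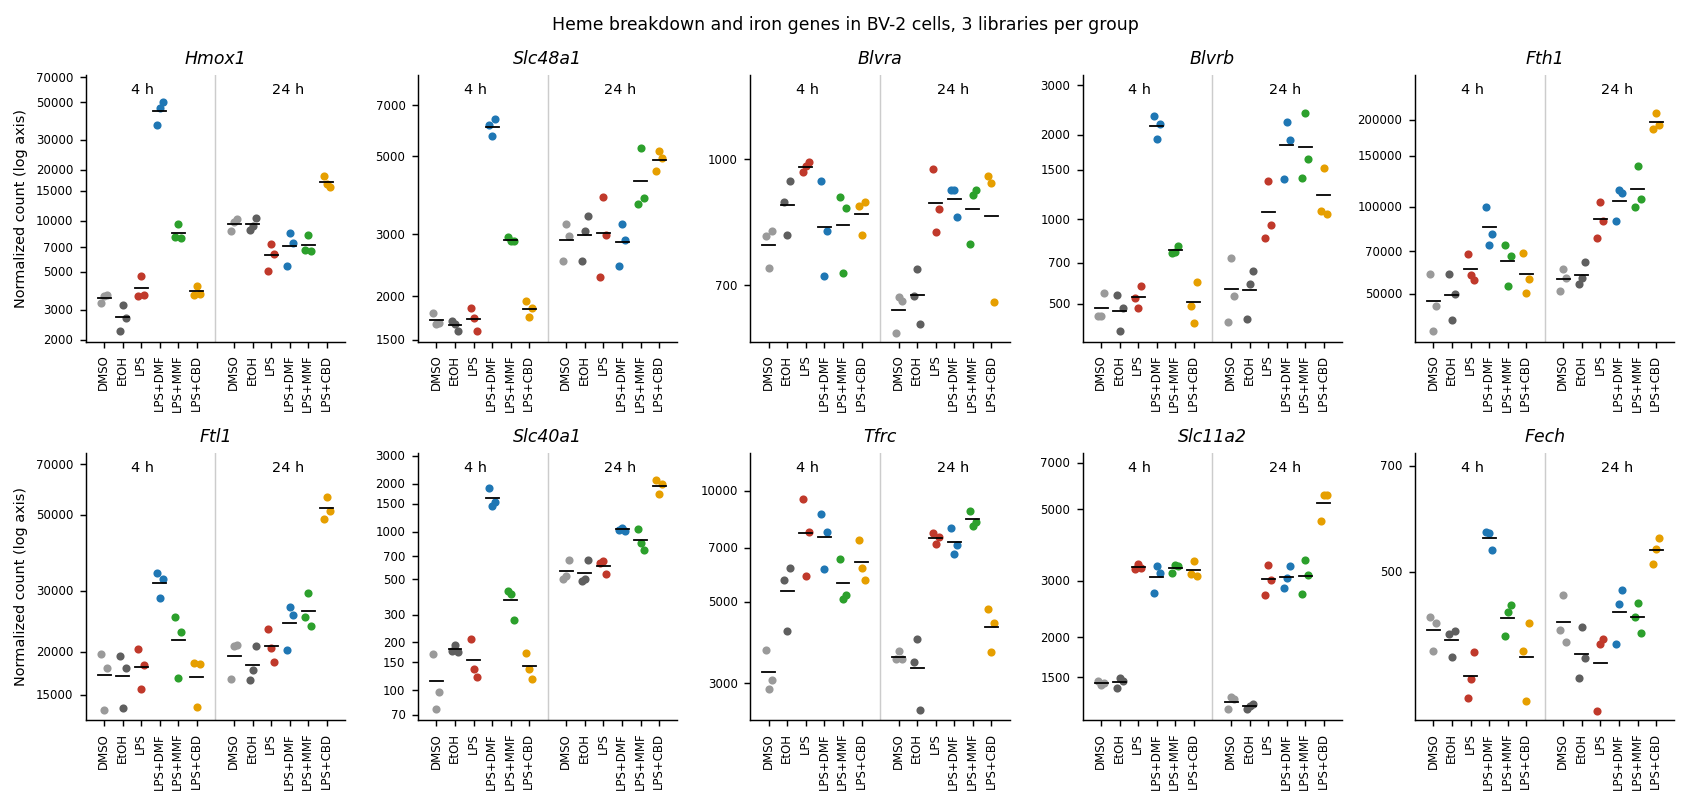
Normalized counts (log axis) of the 10 genes in the 36 libraries, by treatment and exposure time, with 1 point per library and a black bar at the group mean. Hmox1, Slc48a1 and Blvrb stand highest in LPS with DMF at 4 h, and Fth1, Ftl1, Slc40a1 and Slc11a2 in LPS with CBD at 24 h.

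LPS alone raised the iron importer Slc11a2 at both times, the transferrin receptor Tfrc was called by limma in all but the 4 h comparison with EtOH, and Hmox1 was below the vehicles at 24 h. Slc11a2 encodes the iron importer DMT1, which moves ferrous iron out of endosomes. Its normalized counts at 4 h were 1463, 1415 and 1441 with DMSO, 1387, 1488 and 1460 with EtOH, and 3266, 3391 and 3274 with LPS. All 3 LPS libraries lay above all 6 vehicle libraries, with little spread in any group. The fold change was 2.29 against either vehicle (log2 1.20 ± 0.06 SE, adjusted p = 1.29e-05 against DMSO and 2.28e-05 against EtOH). At 24 h it was 2.42 against DMSO (adjusted p = 4.35e-06) and 2.49 against EtOH (adjusted p = 2.23e-06). In bulk RNA, fewer cells of a kind and less RNA per cell cannot be told apart.

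Tfrc encodes transferrin receptor 1, which brings in transferrin-bound iron. At 4 h its counts were 3696, 2903 and 3073 with DMSO, 5712, 4160 and 6169 with EtOH, and 9503, 5873 and 7734 with LPS. The LPS libraries stood above all DMSO libraries but overlapped with those of EtOH. Tfrc rose 2.35-fold against DMSO (log2 1.23 ± 0.16 SE, adjusted p = 0.00184), and the log2 difference from EtOH was 0.52 ± 0.19 (adjusted p = 0.129 by limma). That difference was called by DESeq2 (adjusted p = 0.0258), with all 36 libraries in 1 fit (0.0258) and without LPS replicate 2 (0.0246). At 24 h it rose against both, 2.12-fold over DMSO (adjusted p = 2.2e-06) and 2.31-fold over EtOH (adjusted p = 6.96e-05), and no LPS library overlapped with a vehicle library.

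Of the 10 genes, LPS at 4 h called 3 against DMSO (all higher, where 14.1% of tested genes were called) and 2 against EtOH (both higher, 10.2% called). The third call against DMSO was Blvra, biliverdin reductase A, at log2 0.31 ± 0.07 SE (adjusted p = 0.0216). Leaving out LPS replicate 3, DMSO replicate 5 or DMSO replicate 6 took the adjusted p of Blvra to between 0.0623 and 0.0973. The second call against EtOH was Hmox1, at 0.56 ± 0.15 (adjusted p = 0.0472). Its adjusted p was between 0.0552 and 0.159 when LPS replicate 1, 2 or 3 or EtOH replicate 4 or 6 was left out, 0.0569 without the filter on low counts and 0.051 with edgeR.

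At 24 h LPS moved 6 of the 10 genes against DMSO (22.7% of genes called) and 6 against EtOH (20.5% called), and these were the same 6, of which 5 rose and 1 fell. Hmox1 was the one that fell. Its counts were 8758, 9899 and 10253 with DMSO, 8854, 9261 and 10437 with EtOH, and 5094, 7349 and 6416 with LPS, with no overlap between LPS and either vehicle. The fall was by 0.62 on the log2 scale against DMSO (SE 0.12, adjusted p = 0.00385) and by 0.60 against EtOH (SE 0.12, adjusted p = 0.00477).

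The 24 h rises with LPS included both reductases and the ferritin heavy chain. Blvrb, biliverdin reductase B, which also reduces flavins, rose 1.91-fold over DMSO (adjusted p = 0.00623) and 1.89-fold over EtOH (adjusted p = 0.00366). Blvra rose 1.36-fold and 1.31-fold (adjusted p = 0.00481 and 0.0148). Against EtOH the Blvra call was lost without LPS replicate 1 or 3 or EtOH replicate 6, with adjusted p between 0.051 and 0.0648. Fth1, the ferroxidase chain of ferritin, stood at 78105, 103752 and 89316 with LPS, above 51007, 60798 and 56846 with DMSO and 53791, 56448 and 64351 with EtOH. Its rise was 1.62-fold over DMSO (adjusted p = 0.002) and 1.56-fold over EtOH (adjusted p = 0.00431). Ftl1 did not pass the test, at log2 0.11 ± 0.11 and 0.20 ± 0.11 (adjusted p = 0.505 and 0.246).

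Between the vehicles no member was called by limma at 4 h (no gene of 11458 called, 0.0%, smallest adjusted p 0.256, 1051 genes and 3 members at an unadjusted p under 0.05) or at 24 h (0.00854% called, 1 gene, and no member at an unadjusted p under 0.05). Same-numbered vehicle libraries deviated together, and with the replicate number as a block 876 genes (7.65%) and 3 members were called at 4 h. In DMSO relative to EtOH at 4 h, Hmox1 was higher by log2 0.40 (adjusted p = 0.000887 with the block), Tfrc lower by 0.71 (log2 -0.71, adjusted p = 0.000103) and Slc40a1 lower by 0.73 (log2 -0.73, adjusted p = 0.029). DESeq2 on the recovered reads called 1 member, Tfrc, in that comparison. For these 3 genes the DMSO and EtOH libraries at 4 h did not overlap.

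**Figure D2:**
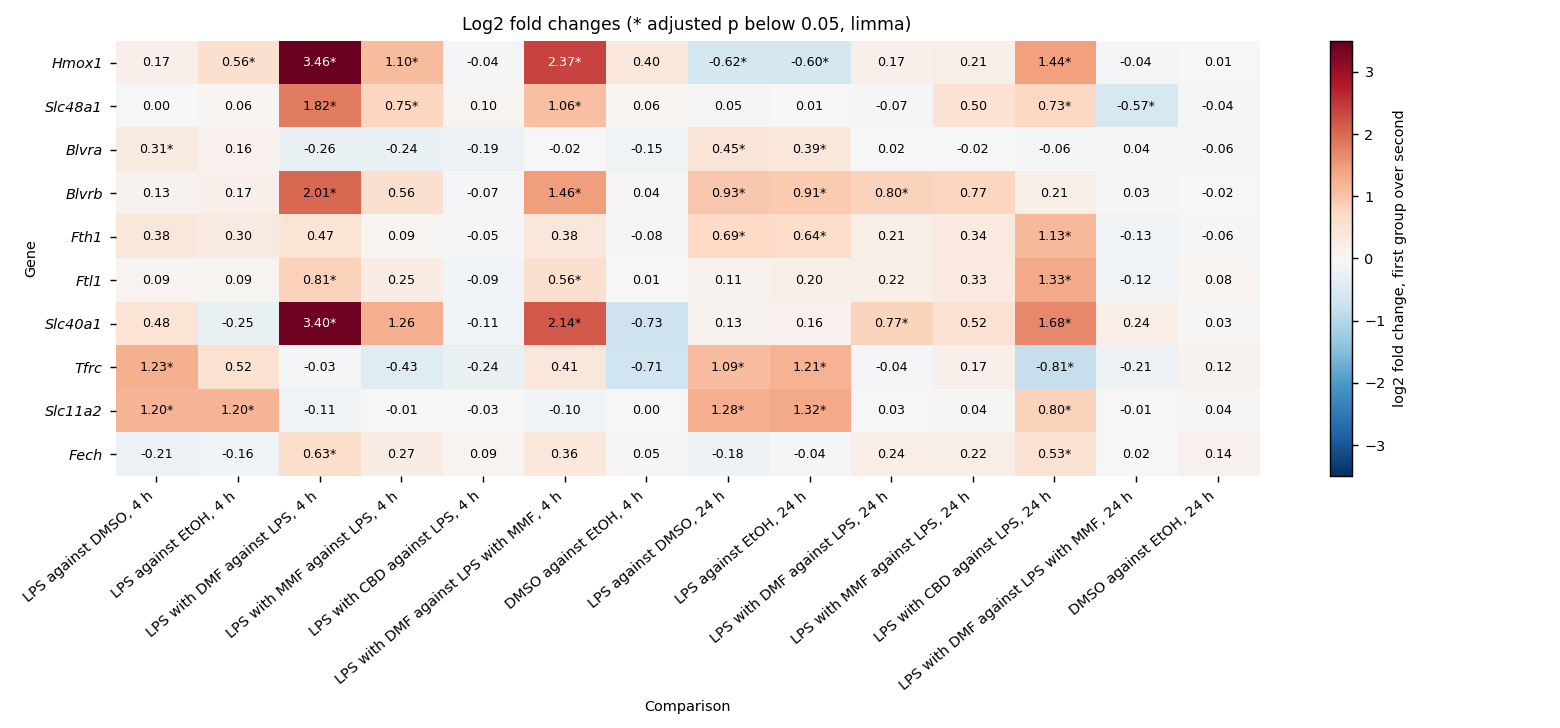
Log2 fold changes of the 10 genes (rows) in 14 comparisons of 2 groups within an exposure time (columns), the first named group over the second, with an asterisk where the limma adjusted p was below 0.05. The strongest colours are Hmox1 and Slc40a1 in LPS with DMF against LPS at 4 h, at 3.46 and 3.40.

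DMF for 4 h raised Hmox1, Blvrb and Slc48a1 of the heme route together with the iron exporter Slc40a1. Of the 10 genes 6 rose and none fell against LPS (11.1% of genes called), and their median log2 fold change was 0.72 against 0.006 for all genes tested. Hmox1 stood at 36705, 46414 and 49801 normalized counts with DMF and at 3586, 4763 and 3664 with LPS. Every DMF library at 4 h was above every library of the other groups. The rise was 11.0-fold (log2 3.46 ± 0.15 SE, adjusted p = 4.2e-06).

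Ferroportin rose nearly as much. Slc40a1 counts were 1870, 1458 and 1530 with DMF and 211, 136 and 121 with LPS, a 10.5-fold rise (log2 3.40 ± 0.20 SE, adjusted p = 2.61e-05). Blvrb went from 524, 484 and 577 to 2326, 1925 and 2174, a 4.04-fold rise (adjusted p = 1.43e-05). The groups were apart for both genes.

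Slc48a1 encodes the heme transporter HRG1, which carries heme out of the phagolysosome. Its counts were 6138, 5727 and 6385 with DMF and 1849, 1732 and 1594 with LPS, a 3.52-fold rise with no overlap (log2 1.82 ± 0.09 SE, adjusted p = 8.91e-06). Hdac7, which shares its exon bases, held 198, 609 and 224 normalized counts with DMF and 160, 698 and 213 with LPS, and the log2 difference was 0.06 ± 0.56 (adjusted p = 0.969).

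The ferritin chains moved less. Ftl1 counts were 33798, 28678 and 32424 with DMF and 20320, 15577 and 18301 with LPS, a 1.75-fold rise without overlap (adjusted p = 0.0026). Fth1 counts were 99949, 73889 and 80742 against 68558, 57805 and 55624, also without overlap, and the log2 difference of 0.475 ± 0.14 missed the threshold (adjusted p = 0.0597) but passed with the replicate block (adjusted p = 0.0119), with DESeq2 (0.00566) and with all 36 libraries in 1 fit (0.0374). Fech, ferrochelatase, which puts iron into the porphyrin ring in the last step of heme synthesis, rose 1.54-fold, from 335 to 387 counts over the LPS libraries to 536 to 567 with DMF (adjusted p = 0.00473).

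The members with no call for DMF at 4 h were of the uptake side, beside Blvra and Fth1. Tfrc differed by log2 -0.03 (95% interval -0.42 to 0.37) and Slc11a2 by -0.11 (-0.32 to 0.10). Blvra was at -0.26 (-0.50 to -0.02, adjusted p = 0.175), and its DMF and LPS libraries did not overlap.

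At 24 h the DMF libraries were close to those of LPS for most members, although 25.1% of all genes were called. Hmox1 was at 5407, 8467 and 7443 counts with DMF and 5094, 7349 and 6416 with LPS (log2 0.17 ± 0.16 SE, adjusted p = 0.475). The groups overlapped, and within each replicate number the DMF library was the higher one. Of the 10 genes 2 were called, both higher. Slc40a1 stood at 1028, 1056 and 1013 against 632, 648 and 543, a 1.70-fold rise (adjusted p = 0.000431). Blvrb stood at 1393, 2217 and 1913 against 858, 1371 and 949, a 1.74-fold rise (adjusted p = 0.0117), which missed 0.05 without DMF replicate 3 or LPS replicate 3 (adjusted p 0.0534 and 0.057). Same-numbered libraries deviated together here, and with the replicate block 5 of 10 genes were called where 39.1% of all genes were. The added calls were Hmox1 (adjusted p = 0.0321), Fth1 (log2 0.21, adjusted p = 0.0464) and Fech (log2 0.24, adjusted p = 0.0402).

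The change in the DMF effect between the exposure times was tested as an interaction over 12 libraries. It was called for 5 of 10 genes, all with a smaller effect at 24 h (16.3% of genes called). On the log2 scale the effect at 24 h minus that at 4 h was -3.30 ± 0.25 SE for Hmox1, -2.64 ± 0.23 for Slc40a1, -1.88 ± 0.21 for Slc48a1, -1.22 ± 0.24 for Blvrb and -0.60 ± 0.18 for Ftl1. For Hdac7, beside Slc48a1, it was -0.84 ± 0.65 (adjusted p = 0.42, 0.00107 with the replicate block). The Ftl1 value was the weakest (adjusted p = 0.0398) and lost its call in 8 of the 12 fits that each left out 1 library and in the fit without a filter on low counts, with adjusted p between 0.0564 and 0.0973. With the replicate block, Fech was called as well (-0.395, adjusted p = 0.0415).

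MMF, at the same dose, raised Hmox1 and Slc48a1. At 4 h limma called these 2 of the 10 genes, both higher (0.122% of genes called, 14 genes in all). Hmox1 counts were 8064, 9532 and 7926 with MMF, all above the LPS libraries, a 2.14-fold rise (log2 1.10 ± 0.12 SE, adjusted p = 0.0128). Slc48a1 counts were 2939, 2871 and 2873, a 1.69-fold rise over LPS (adjusted p = 0.00958), with Hdac7 at log2 1.10 ± 0.46 (adjusted p = 0.667, 0.00488 with the replicate block). Same-numbered libraries did not all deviate together in this comparison. The Hmox1 and Slc48a1 calls are those by limma without the block. Both calls were lost when any MMF library or LPS replicate 3 was left out, with adjusted p between 0.0695 and 0.111, while the log2 values stayed at 1.01 or more for Hmox1 and 0.70 or more for Slc48a1.

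Slc40a1 stood at 424, 407 and 278 counts with MMF at 4 h, above all LPS libraries, and at log2 1.26 ± 0.23 it missed the threshold (adjusted p = 0.11). Blvrb stood at 755, 766 and 799, also without overlap, at log2 0.56 ± 0.09 (adjusted p = 0.0885). DESeq2 on the recovered reads called both genes (adjusted p = 2.39e-05 and 0.00142), as did limma with the replicate block (0.000193 and 0.0057). Slc40a1 was also called with all 36 libraries in 1 fit (0.00115) and without LPS replicate 1 (0.0201). Tfrc was lower with MMF at 4 h, at log2 -0.43 ± 0.16, and its libraries overlapped with LPS (adjusted p = 0.591, 0.0235 with the block).

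At 24 h no gene of 11584 was called for MMF by limma (0.0%, 440 genes at an unadjusted p under 0.05, of which 6 were members), and edgeR called no member. The replicate numbers paired these libraries, and with the block 206 genes were called (1.78%), with 5 of the 10 genes among them, all higher. These were Blvrb (log2 0.77, adjusted p = 1.87e-09), Slc48a1 (0.50, adjusted p = 2.04e-06), Slc40a1 (0.52, adjusted p = 4.85e-05), Ftl1 (0.33, adjusted p = 0.00474) and Fth1 (0.34, adjusted p = 0.0168). Within each replicate number, Blvrb went from 858 to 1400, from 1371 to 2395 and from 949 to 1638, and Slc48a1 from 2261 to 3648, from 3840 to 5299 and from 2991 to 3800. The rise was seen in 3 of 3 pairs for both. Hdac7 was higher as well, at log2 0.26 (adjusted p = 0.0129 with the block). DESeq2 without the block called 1 member, Slc40a1 (adjusted p = 0.0382).

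No change of the MMF effect between times was called by limma for any gene (0.0% of 11839, 385 at an unadjusted p under 0.05). Hmox1 was at -0.89 ± 0.20 SE (unadjusted p = 0.000508, adjusted p = 1.0). With the block, 5 genes were called, Hmox1 among them (adjusted p = 0.00181), but at 4 h the replicate numbers did not pair the MMF and LPS libraries.

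**Figure D3:**
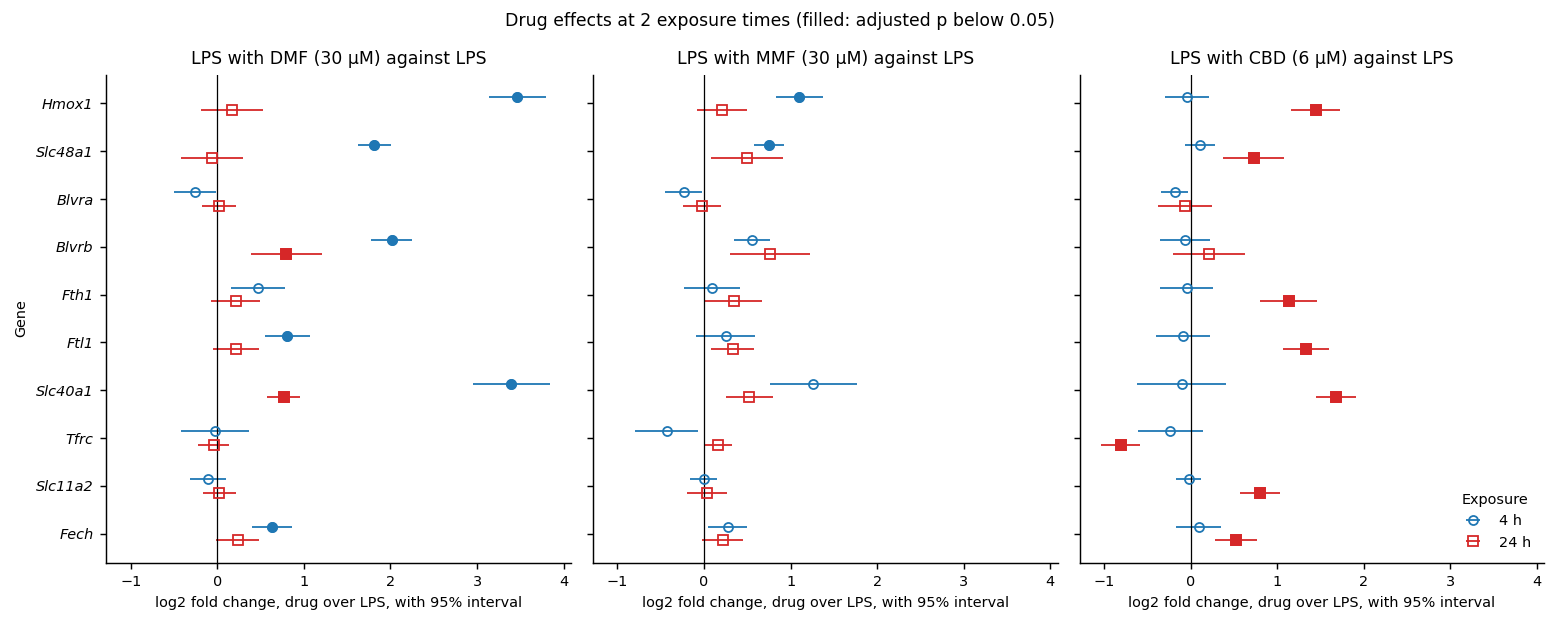
Log2 fold change over LPS with its 95% interval (horizontal axis) for each of the 10 genes, in 1 panel per drug, at 4 h (circles) and 24 h (squares), filled where the adjusted p was below 0.05. DMF has its filled points mainly at 4 h, CBD has 8 filled points at 24 h and none at 4 h, and MMF has 2, both at 4 h.

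DMF is the dimethyl ester of fumaric acid and MMF the monomethyl ester, so they differ by 1 methyl group, and both were given at 30 µM for the same times. The libraries of these drugs were compared directly, over 10 genes and 2 times. At 4 h DMF was higher in 5 of 10 genes (8.34% of genes called). The excess was 5.16-fold for Hmox1 (log2 2.37 ± 0.13 SE, adjusted p = 1.88e-05), log2 2.14 for Slc40a1 (adjusted p = 0.000163), 2.75-fold for Blvrb (adjusted p = 5.82e-05), 2.09-fold for Slc48a1 (adjusted p = 0.000119) and 1.48-fold for Ftl1 (adjusted p = 0.0357). The groups were apart for all 5. Hdac7 was lower with DMF, at log2 -1.04 ± 0.38 (adjusted p = 0.126, 0.00135 with the replicate block, although the replicate numbers did not pair these libraries). Ftl1 lost its call without DMF replicate 1 or 3, without MMF replicate 2 or 3 and without the filter on low counts, with adjusted p between 0.0537 and 0.126.

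For the other 5 genes at 4 h the difference between DMF and MMF was not called by limma, and the 95% intervals on the log2 scale were 0.06 to 0.71 for Fth1, 0.11 to 0.71 for Tfrc, 0.13 to 0.58 for Fech, -0.31 to 0.10 for Slc11a2 and -0.29 to 0.25 for Blvra. DESeq2 called Tfrc (adjusted p = 0.0377) and Fech (0.0497), the fit of all 36 libraries called Fech (0.00637), and Tfrc was also called without DMF replicate 2 (0.0115). At 24 h 21.5% of all genes were called between the drugs and 1 of these 10, Slc48a1, which was lower with DMF. A p that misses the threshold does not show that the esters act alike. Its counts were 2438, 3214 and 2894 with DMF and 3648, 5299 and 3800 with MMF, which did not overlap (log2 -0.57 ± 0.14 SE, adjusted p = 0.0199, 0.0748 without DMF replicate 3). Hdac7 was also lower with DMF there, at -1.03 ± 0.20 (adjusted p = 0.00745), and its part in the Slc48a1 value was not tested.

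The 24 h interval for Hmox1 was -0.37 to 0.29, and the 4 h value of 2.37 lay outside it. For Blvrb the interval was -0.41 to 0.48 and for Slc40a1 0.01 to 0.47. With the replicate block, Tfrc (log2 -0.21, adjusted p = 0.00281) and Slc40a1 (log2 0.24, adjusted p = 0.0218) were called too, for 3 of 10 genes in all where 39.8% of genes were called.

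**Figure D4:**
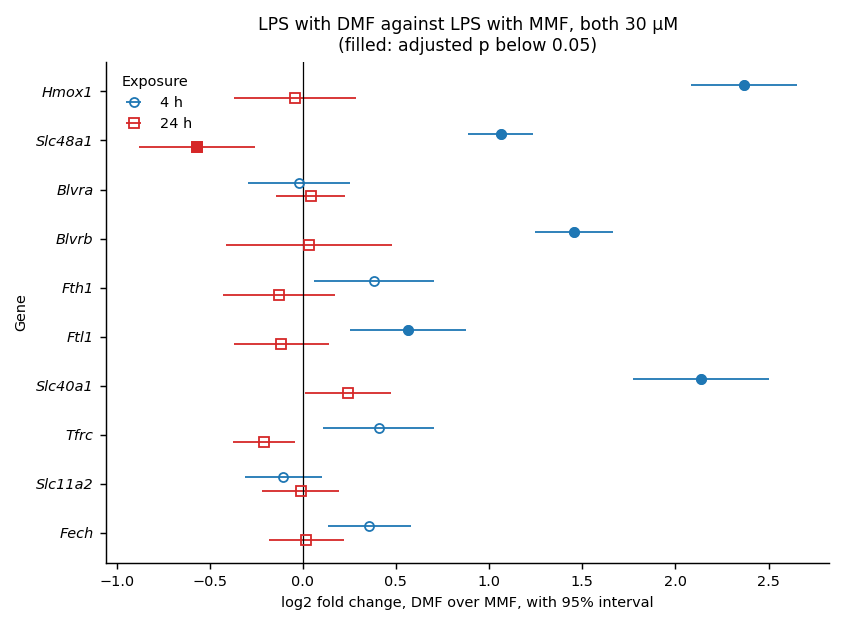
Log2 fold change of LPS with DMF over LPS with MMF, with its 95% interval (horizontal axis), for the 10 genes at 4 h (circles) and 24 h (squares), filled where the adjusted p was below 0.05. At 4 h Hmox1 and Slc40a1 lie above 2, and at 24 h the Slc48a1 point is the filled one, below 0.

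CBD, at 6 µM, was without a called member at 4 h, where limma called 1 gene of 11424 (0.00875%, 363 at an unadjusted p under 0.05) and neither edgeR nor DESeq2 called a member. Hmox1 stood at 3655, 4141 and 3732 counts, among the LPS libraries, and its log2 difference was -0.04 (95% interval -0.30 to 0.21). The members' log2 differences ran from -0.24 to 0.10, and 1 of them, Blvra, had an unadjusted p under 0.05.

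After 24 h of CBD 8 of the 10 genes were called, 7 higher and 1 lower, where 48.7% of all genes were called. Reads of mitochondrial genes were 1.254 to 1.396% of the CBD libraries and 1.44% of LPS replicate 1 at 24 h, against 1.83 to 2.32% in the other 32 libraries, and 8 members were also called without that LPS library. In the CBD libraries this share and the treatment cannot be told apart. The median log2 fold change of the 10 was 0.76, against -0.002 over all genes tested. Slc40a1 rose most, with 2126, 1727 and 1982 counts against 632, 648 and 543 with LPS, a 3.20-fold rise (log2 1.68 ± 0.10 SE, adjusted p = 5.09e-06). Hmox1 stood at 18293, 16584 and 15716, above every LPS library, a 2.72-fold rise (log2 1.44 ± 0.13, adjusted p = 2.96e-05).

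Both ferritin chains rose with CBD to the highest levels of the series. Ftl1 stood at 48646, 56326 and 51353 counts against 23307, 20526 and 18609 with LPS, a 2.52-fold rise (log2 1.33 ± 0.12 SE, adjusted p = 2.96e-05). Fth1 stood at 186277, 210483 and 192142 against 78105, 103752 and 89316, a 2.19-fold rise (log2 1.13 ± 0.15, adjusted p = 0.000266). For neither chain did a CBD library at 24 h overlap with a library of any other group. Fth1 alone took up to 1.24% of a library's reads.

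The uptake genes went opposite ways with CBD at 24 h. Tfrc fell from 7696, 7196 and 7519 counts to 4785, 3649 and 4376 (log2 -0.81 ± 0.10 SE, adjusted p = 0.000209). The lowest CBD library lay within the 24 h ranges of DMSO (3490, 3668 and 3490) and EtOH (3434, 3958 and 2546), and the others lay above both. CBD was not tested against a vehicle. Slc11a2 rose from 2711, 3351 and 3023 to 4616, 5541 and 5561 (log2 0.80 ± 0.10, adjusted p = 0.000248). For neither gene did the CBD and LPS libraries overlap.

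Slc48a1 rose 1.66-fold with CBD at 24 h (adjusted p = 0.0044), to 4539, 5196 and 4946 counts from 2261, 3840 and 2991. Hdac7 went the other way, from 1123, 1709 and 1124 to 403, 603 and 247 (log2 -1.72 ± 0.28 SE, adjusted p = 0.000941). Fech rose 1.44-fold (adjusted p = 0.00346). The reductases were not called, with Blvra at log2 -0.06 (95% interval -0.38 to 0.25) and Blvrb at 0.21 (-0.21 to 0.63, adjusted p = 0.0262 with the replicate block).

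The CBD effect was larger at 24 h than at 4 h for 6 of 10 genes (32.0% of genes called). The log2 effect at 24 h minus that at 4 h was 1.79 ± 0.26 SE for Slc40a1, 1.49 ± 0.19 for Hmox1, 1.43 ± 0.19 for Ftl1, 1.18 ± 0.21 for Fth1, 0.82 ± 0.13 for Slc11a2 and 0.63 ± 0.20 for Slc48a1, where Hdac7 was at -2.50 ± 0.67 (adjusted p = 0.0116). Slc48a1 (adjusted p = 0.0282) lost its call in 6 of the 12 fits without 1 library, with adjusted p between 0.0524 and 0.0614. With the replicate block Blvrb (0.28, adjusted p = 0.0433), Tfrc (-0.57, adjusted p = 0.00223) and Fech (0.44, adjusted p = 0.0138) were called as well. The CBD and DMF values share the LPS libraries and the doses differ, so no test between these drugs was made.

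In the vehicles the share of members that differed between 24 h and 4 h was near that of all genes. The same held for LPS alone, LPS with MMF and LPS with DMF. In DMSO alone 5 of 10 were called (51.6% of genes called) and in EtOH alone 6 (58.6% called), and Blvrb, Fth1, Ftl1 and Fech were called in neither. Hmox1 rose 2.68-fold in DMSO (adjusted p = 1.27e-06) and 3.49-fold in EtOH (adjusted p = 5.69e-06). Slc40a1 rose 5.06-fold and 2.98-fold (adjusted p = 4.42e-05 and 1.12e-05), and Slc48a1 1.66-fold and 1.77-fold (adjusted p = 9.02e-05 and 6.09e-05). Hdac7 rose 4.57-fold and 9.34-fold over the same interval. Blvra and Slc11a2 fell in both vehicles, by 0.22 to 0.39 on the log2 scale, and in DMSO both calls were lost without DMSO replicate 6 at 4 h (adjusted p 0.0576 and 0.058), and that of Slc11a2 also without DMSO replicate 4 at 24 h (0.0574) and with all 36 libraries in 1 fit (0.0544). Tfrc fell in EtOH by 0.71 (adjusted p = 0.00452), and in DMSO its log2 difference was 0.12 ± 0.09 (adjusted p = 0.258).

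With LPS alone 5 of 10 genes rose from 4 h to 24 h (48.9% of genes called), which were Slc40a1 (3.97-fold), Blvrb (1.96-fold), Slc48a1 (1.71-fold), Hmox1 (1.56-fold) and Fth1 (1.48-fold). Hdac7 rose 4.46-fold (adjusted p = 0.00285). Fth1 missed 0.05 without LPS replicate 3 at either time (adjusted p 0.0503 and 0.0683). With MMF 5 rose (49.5% called), namely Slc40a1, Blvrb, Fth1, Tfrc and Slc48a1, by 1.44-fold to 2.39-fold, and Hdac7 rose 2.49-fold (adjusted p = 0.000757). Hmox1 was at -0.25 ± 0.10 there, with an adjusted p of 0.0643 (0.00391 with the replicate block).

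The members called with DMF fell from 4 h to 24 h, and the same genes rose with CBD. With DMF 5 of 10 genes fell (58.8% of genes called), led by Hmox1, which was 6.32-fold lower at 24 h (adjusted p = 2.36e-06). Slc48a1 was 2.16-fold lower, Slc40a1 1.57-fold, Ftl1 1.32-fold and Fech 1.27-fold, and the calls of the last 2 were lost without DMF replicate 1 at 24 h (adjusted p 0.055 and 0.0598). Hdac7 went the other way from Slc48a1, 2.49-fold higher (adjusted p = 0.00799). With CBD 9 of 10 genes differed (63.2% called), 8 of them higher at 24 h. Slc40a1 rose 13.7-fold, from 171, 135 and 118 counts to 2126, 1727 and 1982 (adjusted p = 1.73e-07). Hmox1 rose 4.36-fold, Fth1 3.35-fold and Ftl1 3.08-fold, and Tfrc fell by 0.60 on the log2 scale (adjusted p = 0.00155).

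The mean ratio of the ferritin chains ran from 2.79 to 4.59 over the 12 groups. Fth1 over Ftl1, in normalized counts per kb, was 2.86 ± 0.23 in DMSO and 3.04 ± 0.13 in EtOH at 4 h (SD, n = 3), and 3.52 ± 0.35 with LPS. LPS with DMF at 4 h was at 2.79 ± 0.26, with all 3 libraries under the 3 of LPS. At 24 h the ratio was 3.03 ± 0.17 and 3.33 ± 0.08 in the vehicles, and 4.59 ± 0.96 with LPS, where replicate 1 stood at 3.495 and the others above 5. It was 4.51 ± 0.09 with DMF, 4.56 ± 0.37 with MMF and 3.93 ± 0.05 with CBD. These ratios were not tested. Ftl1 has a processed copy in the tables, Ftl1-ps1, with 60 to 389 reads a library against 12623 to 60653 for Ftl1. How reads that fit both were treated in the counting is not given in the sources used here.

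**Figure D5:**
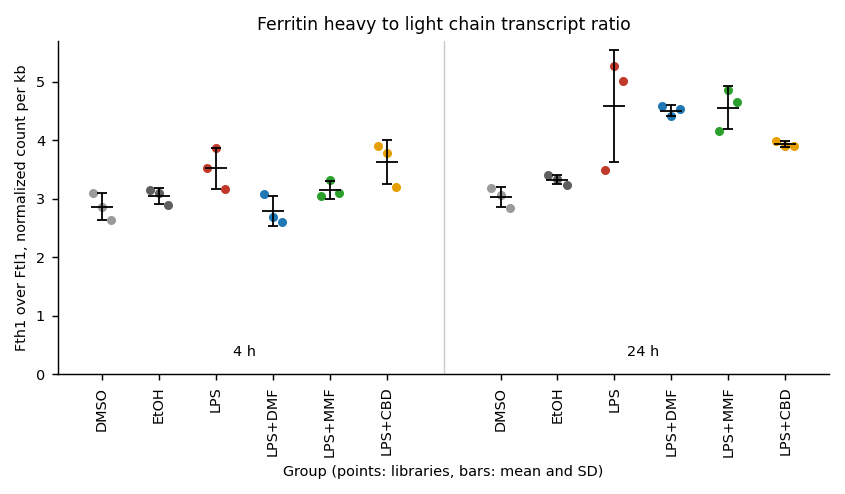
Ratio of Fth1 to Ftl1 (normalized counts per kb of canonical transcript, vertical axis from 0) in each library, by group, with bars for the mean and SD of 3 libraries. The LPS-treated groups at 24 h have means of 3.93 to 4.59, above the 3.03 and 3.33 of the vehicles.

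A further 49 genes of heme synthesis, heme handling, iron movement, iron sensing and the Bach1 and Nrf2 regulators were listed from general knowledge, and 47 of them were in the tables. In LPS with DMF against LPS at 4 h 36 could be tested and 6 were called (11.1% of all genes called), 5 of these among the 6 regulators. Bach1, the heme-binding repressor of Hmox1, rose (log2 1.33 ± 0.15 SE, adjusted p = 0.000917), as did Mafg (0.76 ± 0.09) and Mafk (0.38 ± 0.10), small Maf partners of both Bach1 and Nrf2. Spi1, which encodes the myeloid factor PU.1, fell by 0.79 (adjusted p = 0.00884), and Nfe2l2, which encodes Nrf2, fell by 0.33 (adjusted p = 0.0389). None of the 7 tested genes of heme synthesis and none of the 8 of heme handling was called by limma. With the replicate block Flvcr1, described as a heme exporter of the plasma membrane, was called (log2 0.42, adjusted p = 0.0564 without and 0.0111 with the block).

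Cp, ceruloplasmin, a ferroxidase that works with ferroportin, was the sixth call of DMF at 4 h. Its mean fell from 126 normalized counts with LPS to 36.4 with DMF (log2 -1.79 ± 0.22, adjusted p = 0.00115), while LPS had raised it from 46.6 in DMSO (log2 1.46 ± 0.24, adjusted p = 0.00493). At 24 h Cp stood at 49.5 in DMSO, 430 with LPS, 149 with DMF and 877 with CBD. The rise with LPS (log2 3.13 ± 0.24), the fall with DMF (-1.51 ± 0.18) and the rise with CBD (1.04 ± 0.20) all passed (adjusted p = 7.74e-06, 0.000468 and 0.00231).

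LPS called 5 of 36 listed genes against DMSO at 4 h (14.1% of all genes called) and 10 of 34 at 24 h (22.7% called). Against EtOH it called 4 of 36 (10.2% called) and 7 of 36 (20.5% called). Against both vehicles at 24 h it raised Fbxl5, the iron-sensing ubiquitin ligase subunit, by log2 0.52 and 0.50 and Slc25a37, the mitochondrial iron importer mitoferrin 1, by 0.51 against either. Steap3, an endosomal ferrireductase, fell by 0.41 and 0.51. Against EtOH at 4 h Alas1, the first enzyme of heme synthesis, rose by 0.58 ± 0.12 (adjusted p = 0.0226), and against DMSO its log2 difference was 0.20 ± 0.12 (adjusted p = 0.325).

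In LPS with CBD against LPS at 24 h 16 of 35 listed genes were called, 11 higher and 5 lower, where 48.7% of all genes were called, and the list's median was 0.15. Of the 6 Bach1 and Nrf2 regulators 5 were called, 4 higher and 1 lower. The 4 called genes of iron movement all rose. They were Cp, Mcoln1 (a lysosomal cation channel that passes iron, log2 0.998 ± 0.10, adjusted p = 4.74e-05), Steap3 (0.97 ± 0.08, adjusted p = 2.04e-05) and Slc25a37 (0.67 ± 0.17, adjusted p = 0.0103). Flvcr1 rose by 1.24 ± 0.09 (adjusted p = 9.81e-06), and Ncoa4, the receptor that delivers ferritin to autophagy, by 0.39 ± 0.08 (adjusted p = 0.00443). Tfr2 fell by 1.33 (adjusted p = 0.00175). At 24 h DMF called 8 of 35 listed genes, 4 in each direction (25.1% of all genes called), and 16 with the replicate block (39.1% called), with Bach1 higher by 0.65 ± 0.13 (adjusted p = 0.00522). In limma without the block, MMF at either time and CBD at 4 h called none of the 35 tested. With the block MMF at 4 h called Bach1 (log2 0.50, adjusted p = 0.00722) and Nfe2l2 (log2 -0.42, adjusted p = 0.00905), and at 24 h Cp (log2 -0.61, adjusted p = 0.000133). At 4 h the replicate numbers did not pair the MMF and LPS libraries. Between DMF and MMF 6 of 37 differed at 4 h (8.34% of all genes called), with Bach1 higher by 0.83 ± 0.14 with DMF (adjusted p = 0.00625), and 9 of 35 at 24 h (21.5% called), or 15 with the block (39.8% called).

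Over the 12 group means of log2 level, the genes most like Hmox1 among 10095 with a mean of at least 50 were Kcmf1 (Pearson r = 0.967), Msantd2 (0.935), Ago3 (0.932), Pex13 (0.926) and Slc48a1 (0.923). The 12 points come from 1 cell line on 1 common scale and 2 of them, LPS with DMF at 4 h and LPS with CBD at 24 h, carry most of the range. Kcmf1 ranged only from 1411 ± 71 (EtOH, 4 h) to 1942 ± 78 normalized counts (LPS with DMF, 4 h). Of the other members Slc40a1 was at 0.834, Fech at 0.813 and Ftl1 at 0.727, while Tfrc was at 0.049 and Blvra at -0.285.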

How the data were processed

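RNA of BV-2 cells was sequenced as poly(A) libraries. Per the labels, the authors used Trimmomatic 0.39 and cutadapt 4.4 for trimming, HISAT2 2.2.1 for alignment to GRCm39, HTSeq 2.0.3 for read counts per Ensembl 110 gene and DESeq2 1.40.2 for scaling. They deposited 30 tables of 2 groups each, whose library columns hold signal values, that is, read counts divided by size factors (0.750 to 1.53). The log2 fold change, its standard error, the direction label, the p-value and the score (test statistic) columns of the authors' own comparisons were not used. Whole reads were recovered in 155 of 180 columns (100% of values within 0.01 of a whole read, 0 of 2446332 values differing between tables), and the other 25 columns belong to libraries recovered elsewhere. Columns of other samples numbered 0.

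Tests used limma 3.58.1 (trend) in R 4.3.3 on log2 of the deposited normalized count plus 1, on the 6 libraries of a comparison, for genes at 10 or more in at least 3 libraries. Because of the pseudocount, folds of low genes are understated. Calls were made at a Benjamini-Hochberg adjusted p below 0.05 over all genes tested. Intervals are 95% and errors of fold changes are SE. Interactions used 12 libraries and jointly scaled recovered reads, as do all printed levels, with median-of-ratios factors. Values of genes missing from a library's tables were set to 0 there (4.89%, none of a member). The fits were tested on simulated data. Alternatives were edgeR 4.0.16 and DESeq2 1.42.0 on recovered reads, a pseudocount of 10, no filter, all 36 libraries in 1 fit, the replicate block, and leaving out each library. Levels were also computed as CPM.

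The labels number LPS-treated libraries 1 to 3 and vehicle libraries 4 to 6, and the study ran 3 independent experiments. Numbers were taken to pair libraries where all 3 correlations of same-numbered deviations exceeded 0.1. This held within time for DMF against LPS, CBD against LPS and DMSO against EtOH at both times, for MMF against LPS and DMF against MMF at 24 h, and over time for LPS and MMF.

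Genes named are the 10 members, up to 4 called genes per listed group with the largest change (1 such gene is not reported here), ferritin copies, and the 5 genes most like Hmox1. Members and lists were chosen with earlier results of these data known. Lengths are those of the GENCODE canonical transcripts.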

Additional observations from a re-analysis of the deposited data

Results flagged for a closer look

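The drug effect differed between 24 h and 4 h for 11 pairs of gene and drug, by the interaction test in limma over 12 libraries. For DMF the log2 effect at 24 h minus that at 4 h was -3.30 for Hmox1 (adjusted p = 3.11e-06), -2.64 for Slc40a1 (adjusted p = 8.37e-06), -1.88 for Slc48a1 (adjusted p = 6.16e-05), -1.22 for Blvrb (adjusted p = 0.00396) and -0.60 for Ftl1 (adjusted p = 0.0398). For CBD it was 1.79 for Slc40a1 (adjusted p = 0.000208), 1.49 for Hmox1 (adjusted p = 7.59e-05), 1.43 for Ftl1 (adjusted p = 0.000112), 1.18 for Fth1 (adjusted p = 0.000983), 0.82 for Slc11a2 (adjusted p = 0.000344) and 0.63 for Slc48a1 (adjusted p = 0.0282). Each group held 3 libraries, too few for a test of a single outlying library.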

How the results depend on the processing

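Of 87 called member values, 72 passed under every alternative run, 15 lost the call under at least 1, and none changed sign. Of 143 member values not called, 37 were called under at least 1 alternative. With a pseudocount of 10 all 87 calls held. Members called moved by over 1.5 times in these cases. For LPS against EtOH at 4 h (2 called) it was 1 with edgeR and 1 without the filter. For MMF against LPS at 4 h (2 called) it was 4 with DESeq2. For MMF against LPS at 24 h and DMSO against EtOH at 4 h (0 called each) it was 1 with DESeq2. The cause was not tested. Slc48a1's log2 ratio of highest to lowest group mean was 1.77 in CPM against 1.88.

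Leaving out 1 library gave 1 to 2 members for LPS against EtOH at 4 h, 0 to 3 for MMF against LPS at 4 h, 1 to 3 for DMF against LPS at 24 h, 0 to 2 for DMF against MMF at 24 h and 3 to 7 for DMSO at 24 h against 4 h. With the replicate block, members called were 5 for MMF against LPS at 4 h (1.57% of all genes called), 8 for DMF against MMF at 4 h (15.3%), 3 for DMSO against EtOH at 4 h (7.65%), 5 for DMF against LPS at 24 h (39.1%), 5 for MMF against LPS at 24 h (1.78%), 3 for DMF against MMF at 24 h (39.8%) and 1 for the MMF effect between times (0.0422%). At 4 h the numbers did not pair MMF with LPS (lowest correlation 0.084) or DMF with MMF (0.060). The block took no call from a member. No paired analysis was possible for LPS against a vehicle, because these groups share no replicate number. With 3 libraries a group, a difference that was not called is not shown to be absent.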

Other observations

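The ferritin chains were mostly lowest in the same libraries at 4 h, and less so at 24 h. At 4 h Ftl1 was lowest in replicate 2 in 4 of 4 LPS-treated groups and in replicate 5 in 2 of 2 vehicle groups, and Fth1 in replicate 2 in 3 of 4 and replicate 5 in 2 of 2. At 24 h Fth1 was lowest in replicate 1 in 4 of 4 LPS-treated groups and in replicate 4 in 2 of 2 vehicle groups. Ftl1 was then lowest in replicate 1 in 2 of 4 LPS-treated groups, in replicate 3 in the other 2, and in replicate 4 in 2 of 2 vehicle groups. The tables also list Fthl17a with 1 read and Fthl17f with 6 reads over all 36 libraries.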
